A study of Mus musculus with 6 samples.

Results

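The expression of 10 keratin genes was followed in RNA sequencing of the submandibular gland (SMG) of adult female mice, taken as the 10 rows of that name among 43280 rows of gene counts. They are the 4 keratins of basal cells, Krt5, Krt14, Krt15 and Krt17, and 6 others, of which Krt7, Krt8, Krt18 and Krt19 belong to luminal and duct cells and Krt4 and Krt10 to the upper layers of stratified epithelia. The series holds 3 libraries labelled WT and 3 labelled DKO, numbered 1, 4 and 5 in each group, all from females and, per the study, on a C57BL/6 background. In the DKO mice both Hs3st3a1 and Hs3st3b1, which encode heparan sulfate 3-O-sulfotransferases, were inactivated in every cell of the body, the former by a zinc finger nuclease deletion that shifts the reading frame of its exon 1 and the latter by an allele with a LacZ cassette. Several founder lines were kept, and the line used for these libraries is not given in the sources used here. The groups were compared to learn which genes differ when both enzymes are lost.

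Keratins are the intermediate filament proteins of epithelial cells. Each filament is built from pairs of a type I and a type II chain, so a cell that makes a type II keratin also makes a type I partner. In salivary glands Krt5 pairs with Krt14 in basal duct cells and myoepithelial cells (MECs), the contractile cells that wrap around acini, whereas Krt8 pairs with Krt18 in the simple epithelium of acini and ducts, joined in ducts by Krt7 and Krt19. Krt15 and Krt17 are further type I keratins of basal cells. Krt4 and Krt10 are known from the tongue and oral lining and from the epidermis.

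Total counts ranged from 23674258 to 29611975 per library, and the 10 keratins took 356 to 453 CPM (counts scaled to the library total). Values are counts divided by DESeq2 size factors (normalized counts), given as mean ± SD with n = 3 and in the order of libraries 1, 4 and 5. Log2 fold changes are DKO over WT with their SE, and an adjusted p-value under 0.05 was the threshold. Nothing in the labels ties libraries to separate animals, so p-values measure the spread between these libraries. Counts of the targeted genes did not separate the groups (Hs3st3b1 201 ± 31.4 and 195 ± 61.5, Hs3st3a1 13.0 ± 2.07 and 11.3 ± 3.39 normalized counts in WT and DKO). WT and DKO therefore stand for libraries labelled so, and each direction rests on the labels. By quantitative PCR (qPCR) the study itself found no expression of either gene in adult DKO glands of both sexes. Its mass spectrometry did not detect the most highly sulfated tetrasaccharide of heparan sulfate in male DKO glands. B cell transcripts stood apart in library WT 1, where Ms4a1, which encodes CD20, had 61 counts against 0 to 6 in the other 5 libraries.

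The chains resemble one another closely, which bears on how well reads can be given to a single gene. The most conserved stretch of 60 coding bases is shown for the type I members, at the start of the central rod domain, in exon 1 of each gene (GRCm38, GENCODE M21, coding strand). Capitals mark bases that differ from Krt14.
Krt14 (chr11:100207027-100207086, minus strand): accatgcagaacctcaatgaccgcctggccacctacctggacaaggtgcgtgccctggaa
Krt15 (chr11:100135499-100135558, minus strand): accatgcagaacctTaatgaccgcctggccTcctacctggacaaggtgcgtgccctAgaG
Krt17 (chr11:100260648-100260707, minus strand): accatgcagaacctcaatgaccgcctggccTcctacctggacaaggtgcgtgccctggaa
Krt18 (chr15:102028501-102028560, plus strand): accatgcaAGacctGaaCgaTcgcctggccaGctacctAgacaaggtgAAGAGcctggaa
Krt19 (chr11:100145545-100145604, minus strand): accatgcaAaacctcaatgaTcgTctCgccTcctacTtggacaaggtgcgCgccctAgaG
Krt10 (chr11:99388862-99388921, minus strand): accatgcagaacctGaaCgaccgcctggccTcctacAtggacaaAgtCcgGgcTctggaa
Krt17 differed from Krt14 at 1 of the 60 bases and Krt18 at 12. Over the whole coding sequence, aligned bases of Krt14 were identical to Krt17 at 82.8%, to Krt19 at 73.5%, to Krt15 at 71.8%, to Krt10 at 66.8% and to Krt18 at 63.2%. Between type II members, whole coding sequences were 68.8% (Krt8 and Krt4) to 72.7% (Krt5 and Krt7) identical.

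A count of 50-base windows of the annotated transcripts showed which members could share reads with other genes. Krt14 shared 13.9% of its windows, mostly with Krt16 and fewer with Krt17, and Krt16 itself had 0 counts in 4 libraries and 1 in each of WT 5 and DKO 5. Krt5 shared 12.2%, most often with Krt6a, which had 0 counts in every library. Krt17 shared 3.99%, and Krt15, Krt7 and Krt18 less than 1% (0.64%, 0.916% and 0.72%). Krt8 shared 29.7%, mostly with the pseudogene Krt8-ps, for which no row was analysed here. Krt4 and Krt19 shared 0 windows. Krt10 overlaps the antisense gene Gm11940, and Krt5, Krt7 and Krt8 overlap the opposite-strand genes Gm44323, Gm671 and Gm36026, for which no row was analysed here. The libraries are unstranded, so reads of these overlaps could not be told apart. The members lie in 2 clusters, with Krt10, Krt15, Krt19, Krt14 and Krt17 on chromosome 11 (99385254 to 100261029) and Krt7, Krt5, Krt4, Krt8 and the type I gene Krt18 on chromosome 15 (101411043 to 102032027).

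The luminal pair was the most abundant among the 10 members. Per kilobase of exon, Krt18 stood at 3613 ± 26.3 normalized counts in WT and 4014 ± 352 in DKO, and Krt8 at 1400 ± 113 and 1418 ± 213. Krt7 followed at 242 ± 16.4 and 207 ± 13.3 per kilobase. Its annotated exons (7.049 kb) include a retained intron, and over its coding length of 1.371 kb the level was 1244 ± 84.4 and 1064 ± 68.6, still the third. Next came the basal pair, with Krt14 between 210 and 229 per kilobase in WT and between 138 and 169 in DKO, and Krt5 between 93.2 and 116 and between 85.0 and 127. Krt17 (79.7 ± 14.6 and 55.4 ± 9.76), Krt19 (32.3 ± 3.03 and 25.5 ± 4.36), Krt15 (5.07 to 16.2 and 19.3 to 24.1), Krt10 (5.57 ± 0.467 and 8.70 ± 1.48) and Krt4 (1.97 ± 2.40 and 1.02 ± 0.589) were lower. The order was the same in both groups. The ranges of Krt5 and Krt17, and those of Krt15 and Krt10, overlapped in WT but not in DKO, and those of Krt19 and Krt15 overlapped in DKO but not in WT. Over coding lengths, Krt15 and Krt10 in WT were the only neighbours whose ranges overlapped.

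Of the 10 keratins, only Krt14 passed the threshold, lower in DKO, beside 2.9% of all 18606 rows tested in either direction and 1.88% lower. The study had named Krt14 from these same libraries, so this call is not independent evidence. The study also reported lower Krt14 by qPCR in female and male glands, and lower staining of its protein in male glands. The 2 groups did not overlap in 6 of the 10, of which Krt14, Krt17, Krt7 and Krt19 were lower and Krt10 and Krt15 higher in DKO, against 20.3% of all rows (10.5% lower and 9.85% higher). An unadjusted p-value under 0.05 was found for 3 members, Krt14, Krt17 and Krt7, all lower, against 12.2% of all rows in either direction and 7.26% lower. The median log2 fold change (DKO over WT) was -0.26 over the 4 basal and -0.10 over the 6 other members, against 0.00108 over all rows. In bulk tissue, fewer cells of a type and less RNA per cell cannot be told apart.

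**Figure D1:**
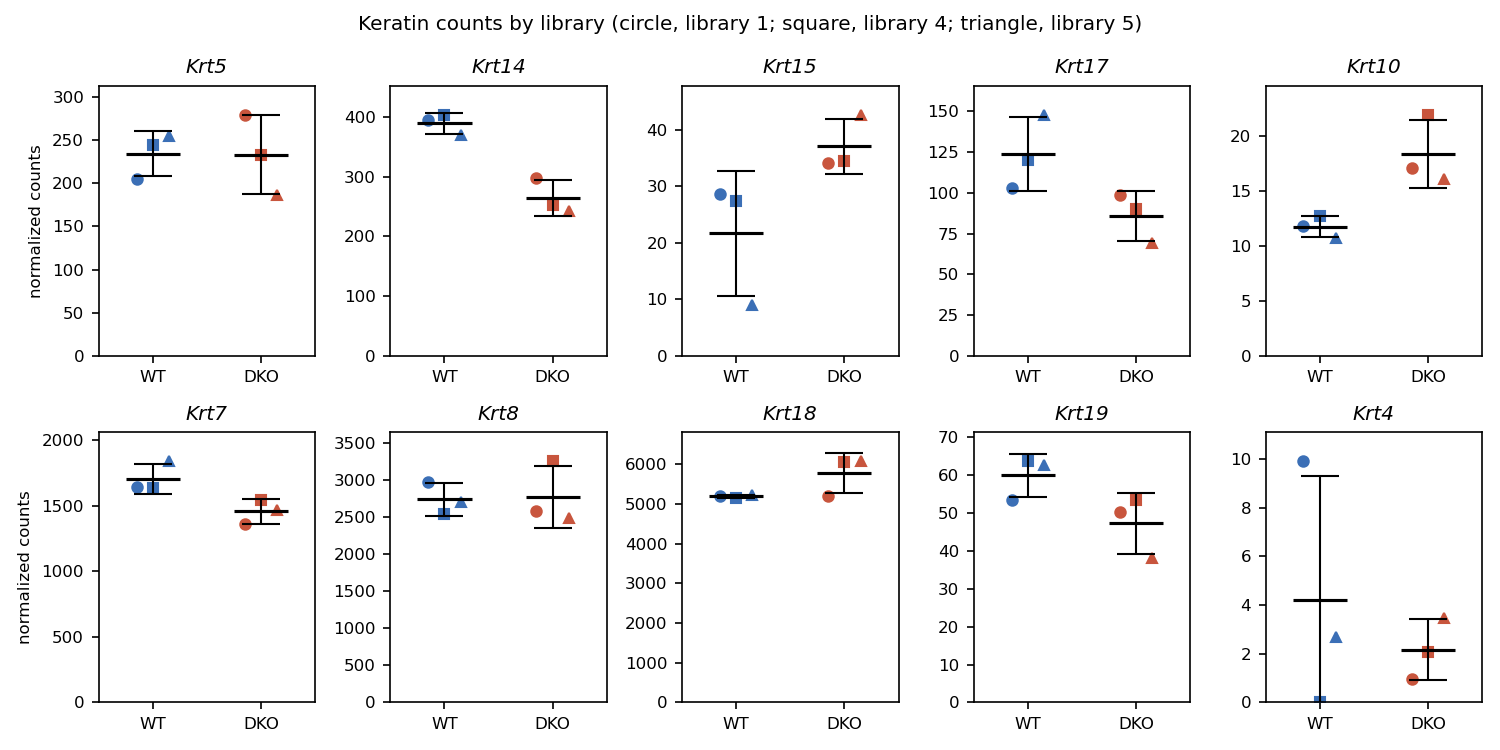
Normalized counts of each keratin (vertical axes, linear from 0, one scale per panel) in the 3 WT libraries (blue) and the 3 DKO libraries (red), with the mean and SD in black (cut at 0 for Krt4). Krt14 lies between 369 and 403 in WT and between 242 and 298 in DKO, while Krt5, Krt8, Krt18 and Krt4 overlap.

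Krt14, the type I partner of basal cells and MECs, had 395, 403 and 369 normalized counts in the WT libraries against 298, 252 and 242 in DKO. Every DKO library lay below every WT library, and the mean was 67.9% of that in WT (log2 fold change -0.56 ± 0.15 (SE), adjusted p = 0.0113 in DESeq2). This call did not hold in edgeR (adjusted p = 0.123, with 0.0537% of all rows called), in limma-voom (0.155, with 0.0376%) or with the library numbers as a replicate block (0.114, with 1.84%), nor in 5 of 6 fits without 1 library, with adjusted p-values of 0.124 (without WT 1), 0.0503 (WT 4), 0.0701 (WT 5), 0.0722 (DKO 4) and 0.124 (DKO 5), and it held without DKO 1 (0.00225). The log2 fold change lay between -0.65 and -0.50 in those 6 fits.

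Krt5, the type II partner of Krt14, had 205, 244 and 254 normalized counts in the WT libraries against 279, 233 and 187 in DKO. The groups overlapped widely, with DKO 1 the highest and DKO 5 the lowest of all libraries. The estimate was -0.01 ± 0.19 (SE) on the log2 scale (adjusted p = 0.997 in DESeq2), with a 95% interval from -0.38 to 0.37. Its sign turned positive in the fits without WT 4, WT 5 or DKO 5.

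Krt17, a keratin of basal cells that is also induced in stressed epithelia, had 103, 120 and 148 normalized counts in the WT libraries against 98.7, 89.9 and 69.2 in DKO. The groups did not overlap, but WT 1 and DKO 1 were close to each other. The estimate of -0.52 ± 0.25 (SE) on the log2 scale did not pass the threshold (DESeq2 adjusted p = 0.303, unadjusted p = 0.0351).

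Krt15, a basal keratin associated with progenitor cells in skin, had higher counts in every DKO library. It had 28.7, 27.4 and 8.96 normalized counts in the WT libraries against 34.2, 34.5 and 42.7 in DKO, with no overlap and with WT 5 far below the rest. The log2 fold change of 0.78 ± 0.47 (SE) did not pass the threshold (adjusted p = 0.508 in DESeq2), and it was 0.40 without WT 5. Raw counts of 10 to 37 leave a 95% interval from -0.15 to 1.71.

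**Figure D2:**
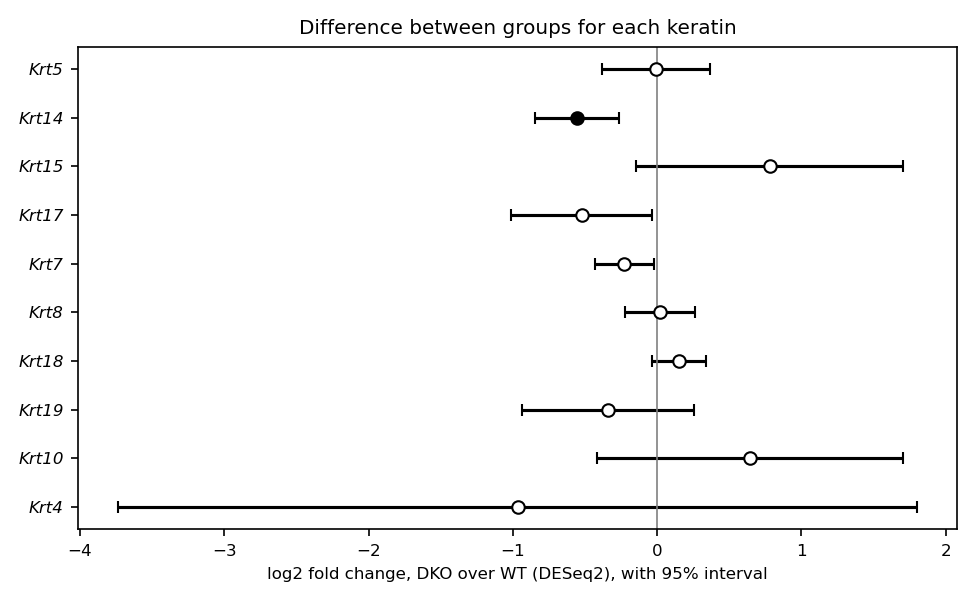
Log2 fold change of each keratin, DKO over WT (horizontal axis), from DESeq2 with its 95% interval, filled where the adjusted p-value is under 0.05. Krt14 at -0.56 is the single filled point, the intervals of Krt17 and Krt7 also end below 0, and that of Krt4 runs from -3.74 to 1.80.

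Krt18, the most abundant member and the type I keratin of simple epithelia, had 5192, 5154 and 5230 normalized counts in the WT libraries against 5184, 6052 and 6067 in DKO. The WT libraries were nearly level (SD 37.8), DKO 1 lay among them and DKO 4 and DKO 5 lay above. The log2 difference of 0.15 ± 0.09 (SE) was not called (adjusted p = 0.528 in DESeq2), and its 95% interval ran from -0.03 to 0.34. Krt8, its type II partner, had 2978, 2539 and 2707 normalized counts against 2585, 3254 and 2489, with overlap. For Krt8 the log2 difference was 0.02 ± 0.12 (SE; adjusted p = 0.98 in DESeq2), with a 95% interval from -0.23 to 0.26.

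Krt7, a type II keratin of duct epithelium, had 1644, 1634 and 1839 normalized counts in the WT libraries against 1361, 1548 and 1468 in DKO. The DKO libraries were all below the WT libraries, and the difference was small, at -0.23 ± 0.10 (SE) on the log2 scale (adjusted p = 0.272 and unadjusted p = 0.0294 in DESeq2). Krt19, the smallest keratin and a duct marker, had 53.4, 63.6 and 62.7 normalized counts against 50.3, 53.3 and 38.0. DKO 4 was just below WT 1, and the estimate of -0.34 ± 0.30 (SE) was not called (adjusted p = 0.736 in DESeq2).

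The keratins of stratified epithelia were near the limit of detection. Krt10 had 12, 13 and 12 raw counts in WT and 18, 21 and 14 in DKO, a log2 difference of 0.64 ± 0.54 (SE; adjusted p = 0.709 in DESeq2). The overlapping antisense gene Gm11940 had 8, 10 and 9 raw counts against 12, 10 and 10. Krt4 had 10, 0 and 3 raw counts against 1, 2 and 3, and DESeq2 gave no adjusted p-value for so low a mean. A count of 0 allows up to 3 counts, or 0.111 CPM in library WT 4, for counting error only. Squamous epithelium was hardly represented in these glands. Of 9 of its markers, Krt6a, Ivl, Flg and Sprr1a had 0 counts in all libraries, Krt1, Krt13, Lor and Krtdap had 2 to 5 counts in total, and only Sbsn was tested (summed level 37.2 to 40.3 normalized counts in WT and 28.2 to 57.6 in DKO, 0.20 on the log2 scale, adjusted p = 0.914 in DESeq2). Mesothelium, another keratin-bearing tissue, was also sparse, with Upk3b, Wt1 and Lrrn4 at 1 or 2 counts in total and Msln between 1.96 and 32.2 normalized counts in single libraries.

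Within a library, ratios of members need no scaling between libraries. These ratios were chosen after the values were seen and are given without a test. The ratio of Krt5 to Krt14 counts was 0.519, 0.604 and 0.689 in WT and 0.936, 0.925 and 0.771 in DKO. Each DKO library thus held more Krt5 per Krt14 than any WT library. Per kilobase the same ratio averaged 0.483 ± 0.0682 and 0.702 ± 0.0738. Krt17 kept to Krt14 with an overlapping ratio (0.320 ± 0.0723 and 0.325 ± 0.0360), whereas Krt15 per Krt14 was 0.0550 ± 0.0267 and 0.143 ± 0.0312 without overlap. The ratio of Krt8 to Krt18 overlapped between the groups (0.528 ± 0.0414 and 0.482 ± 0.0653). Krt7 per Krt18 did not, at 0.317, 0.317 and 0.352 in WT and 0.262, 0.256 and 0.242 in DKO. Krt7 per Krt8, however, overlapped (0.625 ± 0.0656 in WT and 0.531 ± 0.0571 in DKO).

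**Figure D3:**
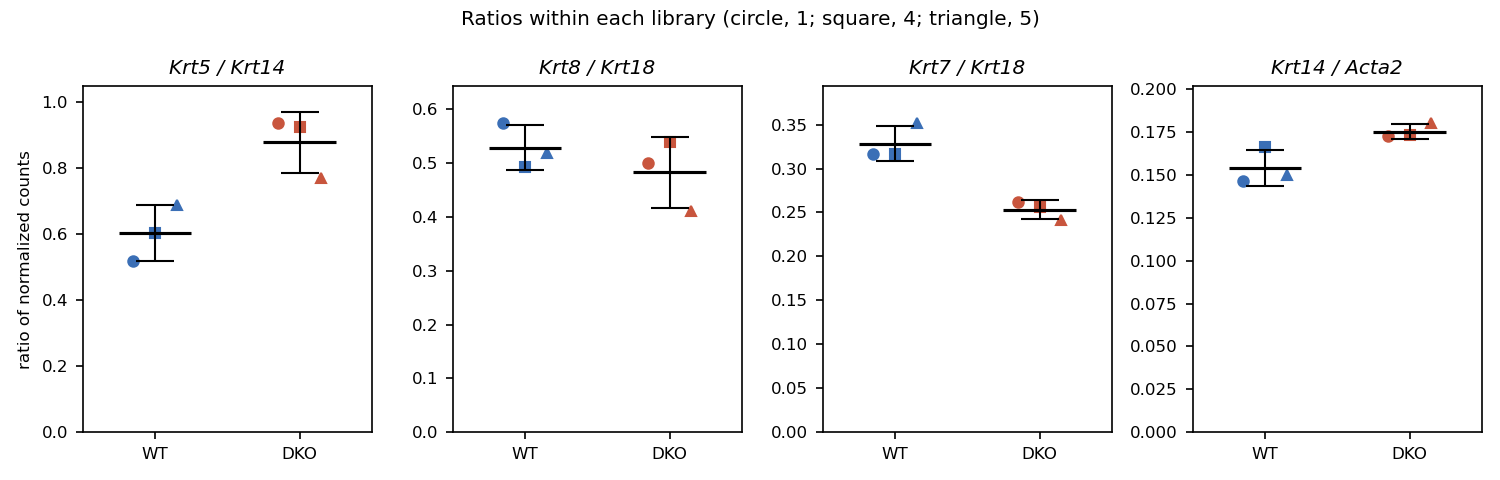
Ratios of normalized counts within each library (vertical axes, linear from 0) for the WT (blue) and DKO (red) libraries, with the mean and SD in black. Krt5 over Krt14 and Krt14 over Acta2 are higher and Krt7 over Krt18 is lower in every DKO library, while Krt8 over Krt18 overlaps.

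Summed over the group, basal keratins had 731, 794 and 780 normalized counts in the WT libraries against 710, 609 and 541 in DKO. The groups did not overlap, although DKO 1 came close to WT 1, and Krt14 carried most of the gap, since without it the log2 difference of the sum was -0.10 instead of -0.32. The other 6 members summed to 9715 ± 270 and 10070.2 ± 866 with overlap. Basal keratins made up 7.34% ± 0.452 of the normalized counts of the 10 in WT and 5.84% ± 1.15 in DKO, and DKO 1 (7.16%) lay inside the WT range.

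How the libraries were scaled shifted the estimates of basal and luminal members alike. Dividing by total counts shifted the median log2 fold change of all rows to -0.23. In that fit Krt7 (log2 fold change -0.47, DESeq2 adjusted p = 0.00271) and Krt17 (-0.75, adjusted p = 0.0482) passed the threshold beside Krt14 (-0.79, adjusted p = 6.58e-04), with 7.9% of all rows called, and Krt8 (-0.23) and Krt18 (-0.09) turned negative. Length-scaled values that sum to the same total in each library (TPM) gave 54.1 ± 1.46 and 34.2 ± 6.28 for the basal sum and 685 ± 62.0 and 580 ± 23.5 for the sum of the other 6, without overlap in either.

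**Figure D4:**
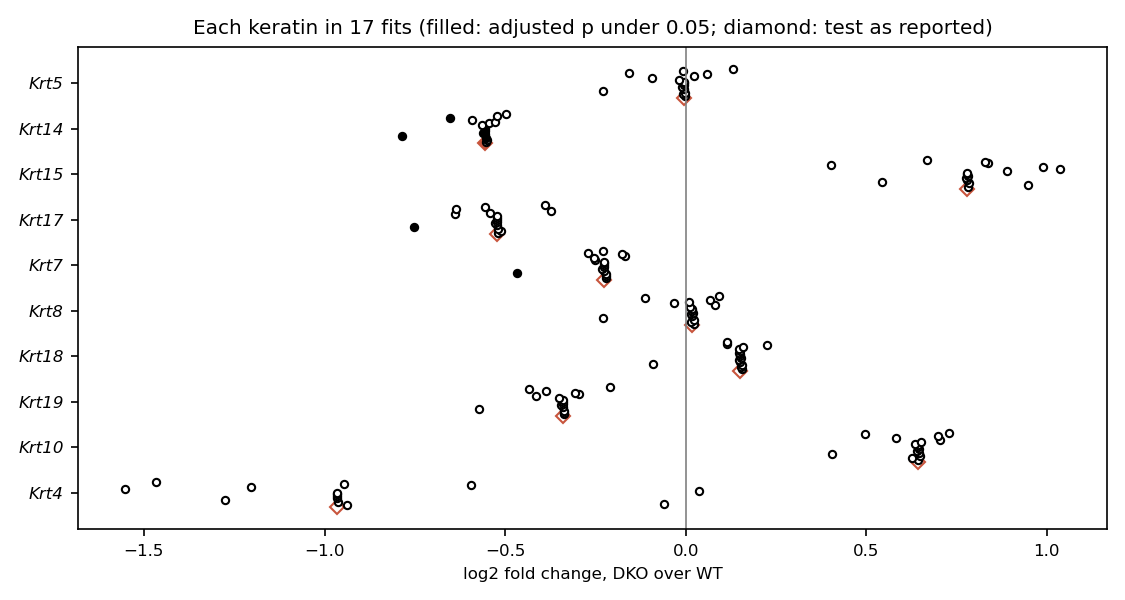
Log2 fold change of each keratin, DKO over WT (horizontal axis), in the reported DESeq2 fit (red diamonds) and its 16 alternatives (circles), filled where the adjusted p-value is under 0.05. Krt14 stays between -0.79 and -0.50 and Krt17 and Krt7 are filled once each, with total counts as size factors, while Krt5 and Krt8 lie on both sides of 0.

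Of the 41 other keratin rows, 25 had 0 counts in all libraries, 7 were tested and 0 passed the threshold in DESeq2. Of those tested, 1 had an unadjusted p-value under 0.05, against 12.2% of all rows. Over all rows, edgeR called 10 genes and limma-voom 7. Krt23, a type I keratin, stood between Krt8 and Krt7 per kilobase of exon (1191 in WT and 1341 in DKO), with 1863 ± 204 and 2098 ± 191 normalized counts (0.17 ± 0.12 (SE) on the log2 scale, adjusted p = 0.606 in DESeq2). Krt80, a type II keratin, had 243, 277 and 253 normalized counts in the WT libraries against 187, 163 and 219 in DKO. These groups did not overlap, and the log2 difference of -0.44 ± 0.17 (SE) was not called (adjusted p = 0.157 and unadjusted p = 0.0112 in DESeq2). The remaining 5, namely Krt36, Krt75, Krt79, Krt83 and Krt222, had means of 1.68 to 2.75 normalized counts.

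Keratin filaments end at hemidesmosomes, which hold basal cells to the basement membrane, and at desmosomes, which join neighbouring cells. Of 6 hemidesmosome genes, 0 passed the threshold in DESeq2 and 2 had an unadjusted p-value under 0.05, against 12.2% of all rows. Col17a1, the transmembrane collagen of hemidesmosomes, had 321, 346 and 268 normalized counts in the WT libraries against 264, 164 and 178 in DKO. Its groups just failed to overlap, at -0.62 ± 0.21 (SE) on the log2 scale (adjusted p = 0.064 in DESeq2). Cd151, a tetraspanin of the same complex, was at 927 ± 24.6 and 1095 ± 144 (0.24 on the log2 scale, adjusted p = 0.357 in DESeq2). The keratin linker plectin (Plec, 8135 ± 473 and 8061 ± 770) and the integrin chains Itga6 (4648 ± 195 and 4281 ± 108) and Itgb4 (1741 ± 49.0 and 1883 ± 224) had log2 fold changes between -0.12 and 0.11. Of 12 desmosome and envelope genes, 11 were tested. The number past the threshold in DESeq2 was 0, as was that at an unadjusted p-value under 0.05, and estimates on the log2 scale spanned -0.30 to 0.12 around a median of -0.08. Desmoplakin (Dsp), which ties keratins to desmosomes, was at 9110 ± 283 and 9117 ± 224 normalized counts, with a 95% interval of the log2 fold change from -0.15 to 0.15. Dsg3, the desmoglein of basal keratinocytes, had 1 count in total and was not tested.

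Of 11 transcription factors of basal and duct epithelium, 0 passed the threshold in DESeq2. An unadjusted p-value under 0.05 was found for 2, against 12.2% of all rows. Trp63, which encodes p63, a master regulator of basal cells, had 357, 327 and 326 normalized counts in the WT libraries against 292, 191 and 179 in DKO. All DKO libraries lay below the WT libraries, at -0.60 ± 0.20 (SE) on the log2 scale (adjusted p = 0.0599 in DESeq2). The ratio of Krt14 to Trp63 overlapped between the groups (1.16 ± 0.0677 and 1.23 ± 0.184). Ehf, an ETS factor of simple epithelia, was at 9530 ± 584 and 8300.2 ± 392 (-0.20 on the log2 scale, adjusted p = 0.246 in DESeq2). Grhl1 and Grhl2, grainyhead factors of epithelial junctions and barriers, were next in abundance, with estimates of 0.02 and 0.04.

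Marker genes of the gland's cell types differed between the groups too, and their part in the keratin values was not tested. Among all rows tested, 1.88% passed the threshold lower in DKO and 1.02% higher. All 7 contractile genes of MECs, which vascular smooth muscle also expresses, were lower and passed the threshold, with a median log2 fold change of -0.74 and a summed level of 10802 to 11716 normalized counts in WT and 5930 to 7690 in DKO. The study had named these genes from the same libraries, and also reported lower Acta2, Cnn1, Myh11, Mylk and Tagln by qPCR in both sexes. As for Krt14, the calls of Acta2 and Cnn1, the contractile genes followed in every alternative fit, did not hold in edgeR (adjusted p = 0.0743 and 0.0562) or limma-voom (0.0622 and 0.0560), but they held in all 6 fits without 1 library. Acta2, which encodes smooth muscle actin, had 2695, 2429 and 2468 normalized counts in the WT libraries against 1730, 1456 and 1346 in DKO. The DKO libraries stood in this same order for Krt14, Krt5, Krt17 and Trp63, while the WT libraries did not stand in the order of Krt14. That order of the DKO libraries also held for the fibroblast genes Pdgfra and Dcn, but not for Col1a1 or Col17a1, and its source was not tested. Krt14 per Acta2 was 0.147, 0.166 and 0.149 in WT and 0.172, 0.173 and 0.180 in DKO, higher in every DKO library, and Krt5 per Acta2 was 0.0931 ± 0.0149 and 0.153 ± 0.0126. The 5 granular duct genes were lower and passed the threshold as well (median -0.99), while of 5 acinar genes only Aqp5, the acinar water channel, passed it and was higher (4471 ± 516 and 6510 ± 1441, 0.54 on the log2 scale, adjusted p = 0.0165 in DESeq2). The acinar list had a median of 0.28, with 4 estimates above 0 and that of Slc12a2 below it (-0.08). Summed acinar levels of 306429 to 339516 in WT overlapped those of 319052 to 473354 in DKO. The 5 pan-epithelial genes, Epcam and Cdh1 among them, had a median of 0.07 with 0 past the threshold in DESeq2 and 0 with an unadjusted p-value under 0.05. Their summed level of 12089 to 12677 in WT overlapped that of 12219 to 13649.9 in DKO. Of 4 fibroblast genes, Pdgfra (-0.59) and Dcn (-0.47) passed the threshold, and of 6 lymphoid genes Ms4a1 did, with overlapping groups and 61 of its 70 counts in WT 1. Summed lymphoid levels were 634 to 1679 in WT and 294 to 554 in DKO. Skeletal muscle was sparse, with 3 of 4 genes tested, 0 past the threshold in DESeq2 and 0 with an unadjusted p-value under 0.05.

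**Figure D5:**
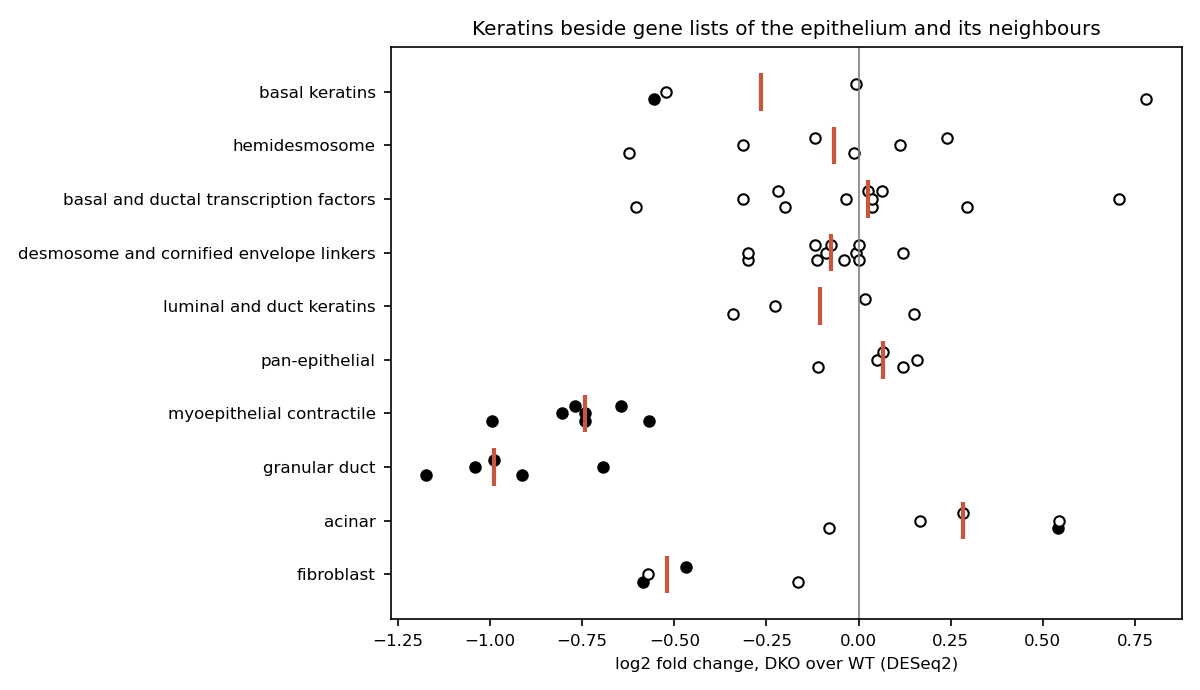
Log2 fold change of each tested gene, DKO over WT (horizontal axis), by list, filled where the DESeq2 adjusted p-value is under 0.05, with the median of each list as a red bar. Basal keratins spread from -0.56 (Krt14) to 0.78 (Krt15), while all contractile and granular duct genes lie to the left of 0.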

How the data were processed

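RNA of 6 SMGs from female mice (3 labelled WT, 3 labelled DKO) had been sequenced by the authors from unstranded Nextera XT libraries on a HiSeq2500. Submitters' processing notes name STAR 2.5.2a, DESeq2, edgeR and limma, and the builds GRCm38 or mm10 and GRCh38, with no roles. The counting tool and annotation are not given in the sources used here. Raw counts for each gene symbol were deposited by the authors, unfiltered and filtered, and also CPM after TMM scaling, which was not used here. The number of unmapped value columns was 0.

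Rows with at least 10 counts over the 6 libraries were kept (18606). DESeq2 1.42.0 in R 4.3.3, the tool of the study's methods, was run with its two-sided Wald test, unshrunken fold changes and Benjamini-Hochberg adjustment over all rows. DESeq2 left 2556 rows without an adjusted p-value. Alternatives used edgeR 4.0.16, limma 3.58.1, other scalings and filters, a replicate block and each library left out. Depth per library is 23674258 to 29611975 counts, so 3 counts are 0.101 to 0.127 CPM. With 3 against 3 an exact test cannot go below p = 0.1. Lengths, coordinates and sequences are those of GENCODE M21 (GRCm38), which matched 91.0% of row names. Named genes are the 10 members, other keratin rows called or most abundant, and from each list those called plus up to 3 abundant ones. Further genes (Krt36, Krt75, Krt79, Krt83, Krt222, Itgb4, Itga6, Col17a1, Cd151, Trp63, markers at or near 0) were chosen after their values were seen. Members and lists were chosen with earlier results of these data known.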

Additional observations from a re-analysis of the deposited data

How the results depend on the processing

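Over the 10 keratins and the alternatives to the reported fit, 140 of 158 log2 fold changes kept their sign and their side of the threshold, 8 lost a call (all Krt14), 2 gained one (Krt7 and Krt17, with total counts) and 8 changed sign, none of them called. Without 1 library Krt5 ranged from -0.16 to 0.13 and Krt8 from -0.11 to 0.093. The sign changes were Krt5 without WT 4 (0.02), WT 5 (0.06) or DKO 5 (0.13), Krt8 with total counts (-0.23) or without WT 4 (-0.03) or DKO 4 (-0.11), Krt18 with total counts (-0.090) and Krt4 with the replicate block (0.038). Over all rows, 539 genes were called, 10 by edgeR, 7 by limma-voom, 1469 with total counts, and 149 to 817 without 1 library. Of the keratins, 1 was called, 0 by edgeR or limma-voom, 3 with total counts, and 0 to 1 without 1 library. The log2 difference of the summed basal keratins was -0.32, -0.55 with total counts and -0.10 without Krt14, and that of the other 6 was 0.05, -0.19 with total counts and -0.077 without Krt18. The cause of these shifts was not tested, apart from the scaling and the genes left out. Deviations from group means correlated at -0.259 to -0.0244 over 11489 genes between same-numbered libraries, and at -0.39 to 0.446 between differently numbered ones. With 3 libraries per group, these correlations cannot decide whether the replicate numbers pair the libraries. With the numbers as a replicate block 343 genes and 0 keratins were called (Krt14 adjusted p = 0.114). Krt4, Krt10 and Krt15 had at most 37 raw counts in any library, and their 95% intervals all held 0.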

Other observations

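Among 7 genes of other intermediate filaments, Synm passed the threshold. It encodes synemin, a filament protein of muscle and contractile cells, and had 438, 507 and 563 normalized counts in the WT libraries against 298, 226 and 199 in DKO. Its groups lay far apart, at -1.06 ± 0.18 (SE) on the log2 scale (adjusted p = 1.76e-06 in DESeq2). Vim, the vimentin gene of mesenchymal cells, was at 750 ± 188 and 577 ± 76.5 normalized counts with overlap (-0.38 on the log2 scale, adjusted p = 0.319 in DESeq2). Des, which encodes desmin of muscle, was at 35.9 and 33.7 normalized counts on average. Nes, the nestin gene, was at 68.0 and 94.4 on average without overlap (adjusted p = 0.48 in DESeq2). The lamin genes Lmna, Lmnb1 and Lmnb2 of the nuclear envelope had log2 fold changes of 0.18, -0.18 and -0.09, and none of these passed the threshold.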
